A study of Mus musculus with 12 samples.

Results

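Accessibility was followed at 8 transcription factor genes of stem cells and leukaemia, Myb, Sox4, Lmo2, Mecom, Hlf, Prdm16, Mycn and Satb1. Members were all open chromatin regions that overlapped the body of one of these genes extended by 20 kb on each side (GENCODE M21 basic annotation, GRCm38). There were 171 such regions among the 121336 of the count table, with 40 at Prdm16, 42 at Mecom, 23 at Lmo2, 21 at Hlf, 15 at Myb, 13 at Satb1, 11 at Sox4 and 6 at Mycn. No region lay in the windows of 2 of these genes, and all 171 passed the filter on low counts. Of the 171, 119 were intronic, 23 were promoter regions (a start site within 500 bp) and 13 were intergenic. Their median width of 355 bp, GC content of 49.9% and level of 2.97 CPM (counts scaled to library size by TMM) were close to the 322 bp, 49.8% and 2.91 CPM of all regions.

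ATAC-seq (OmniATAC), in which a transposase cuts accessible DNA, had been run on sorted bone marrow cells of wild-type (WT) mice and of UREd/d mice (URE), which lack the upstream regulatory element of Spi1 on both alleles. Spi1 encodes PU.1, and the deletion is constitutive, so that cells outside the sorted gates carry it too. LSK, the gate that holds the stem cells, was sorted as Lin- Sca-1+ c-Kit+. GMP, the granulocyte-monocyte progenitors, were sorted on CD16/32 among Lin- c-Kit+ cells without Sca-1. The mice were untreated young adult littermates on a C57BL/6 background, studied in the preleukemic phase. There were 3 libraries, each from 1 mouse, in each of the 4 groups (LSK and GMP, of either genotype).

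PU.1 is an ETS family factor that drives myeloid and B-lymphoid development and is kept at a graded level in stem cells. The 8 genes are known as regulators of stem cell maintenance and progenitor growth, and most are activated or rearranged in leukaemia. Mecom, Prdm16 and Hlf are closely tied to the stem cell state, while Myb is active in proliferating progenitors of several lineages. The distant elements of such genes, more than their promoters, tend to differ between cell types.

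Total counts per library lay between 23072701 and 62204826. In the window of the deleted element, 12 to 17 kb upstream of the Spi1 start codon, the summed level of 5 regions was 51.8 to 59.0 CPM in WT-LSK and 4.38 to 4.81 CPM in URE-LSK, and 71.3 to 86.9 CPM in WT-GMP and 4.17 to 7.16 CPM in URE-GMP. All 6 of the 7 GMP marker genes that have a promoter region were more accessible in WT-GMP than in WT-LSK. Of the LSK markers, 6 of 7 had a promoter region (Ly6a had none) and 1 was called lower in WT-GMP. Several marker sums moved with genotype: for mast cells and basophils, 2 of 3 genes had a promoter region (Ms4a2 had none), summing to 7.38 to 11.4 CPM in WT-LSK, 23.8 to 30.6 in URE-LSK, 9.90 to 13.1 in WT-GMP and 24.8 to 34.5 in URE-GMP. In GMP the GMP marker sum was 202 to 259 CPM in WT and 333 to 347 in URE, and the LSK marker sum was 104 to 126 in WT and 93.9 to 98.1 in URE. In LSK the GMP marker sum was 28.8 to 35.2 in WT and 25.01 to 50.9 in URE. URE-LSK replicate 3 was the highest URE-LSK library at every GMP marker promoter except Prtn3, such as Ctsg (19.5, beside 9.47 and 8.96 CPM). It also read highest at the gains of Lmo2 chr2:103966774-103967156, Mecom chr3:30043643-30043867 and Mycn chr12:12924506-12924837, but not of Hlf chr11:90340597-90340825 or Prdm16 chr4:154325392-154325731. The macrophage sum (3 of 3 genes) was 33.4 to 35.9 in WT-LSK and 27.7 to 29.9 in URE-LSK, and 59.7 to 65.5 in WT-GMP and 42.7 to 57.4 in URE-GMP. The megakaryocyte sum (3 of 3 genes) was 58.0 to 80.5 in WT-LSK, 83.3 to 89.3 in URE-LSK, 25.8 to 49.6 in WT-GMP and 17.5 to 29.0 in URE-GMP. No promoter region was listed for the B cell markers Cd79a and Pax5, the T cell markers Cd3e and Cd3g or the erythroid markers Klf1, Gata1 and Epor, and the lymphoid markers with a promoter region (Ebf1 for B cells, Lck and Cd4 for T cells) summed to at most 9.92 CPM in either list. The part of these shifts in the results on the 8 genes was not tested. In bulk libraries, fewer cells with an open region and less opening in each cell cannot be told apart.

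The sequences of 9 of the regions described here were read from the GRCm38 reference, plus strand. The first set holds regions with large falls in URE. Capitals mark exact matches to the PU.1 motif GAGGAAGT on either strand. The Lmo2 and Satb1 regions held no exact match, and sites that differ from these letters were not searched.
Prdm16 chr4:154500279-154500578: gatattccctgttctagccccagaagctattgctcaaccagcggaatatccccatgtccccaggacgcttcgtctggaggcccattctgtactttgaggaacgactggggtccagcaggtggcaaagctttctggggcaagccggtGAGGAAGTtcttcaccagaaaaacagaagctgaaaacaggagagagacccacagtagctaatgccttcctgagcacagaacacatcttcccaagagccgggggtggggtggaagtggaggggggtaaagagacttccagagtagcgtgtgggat
Mecom chr3:29991623-29991913: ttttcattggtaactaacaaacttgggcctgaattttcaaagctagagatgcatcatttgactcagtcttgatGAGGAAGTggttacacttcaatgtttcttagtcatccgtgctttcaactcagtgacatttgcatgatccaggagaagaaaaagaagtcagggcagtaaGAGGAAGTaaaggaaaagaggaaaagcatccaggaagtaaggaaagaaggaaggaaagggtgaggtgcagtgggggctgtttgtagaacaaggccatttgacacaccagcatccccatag
Lmo2 chr2:103961981-103962280: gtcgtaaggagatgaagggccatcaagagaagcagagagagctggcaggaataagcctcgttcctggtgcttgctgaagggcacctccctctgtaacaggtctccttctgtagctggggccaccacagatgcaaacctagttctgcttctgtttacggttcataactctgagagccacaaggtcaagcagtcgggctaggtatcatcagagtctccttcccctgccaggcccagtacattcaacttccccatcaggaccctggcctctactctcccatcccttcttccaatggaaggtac
Myb chr10:21151420-21151677: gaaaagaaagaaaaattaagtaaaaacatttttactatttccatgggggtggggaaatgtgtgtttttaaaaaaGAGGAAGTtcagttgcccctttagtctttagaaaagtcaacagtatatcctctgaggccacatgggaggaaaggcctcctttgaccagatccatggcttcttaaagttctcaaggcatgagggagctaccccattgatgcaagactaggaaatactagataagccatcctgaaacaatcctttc
Satb1 chr17:51784975-51785274: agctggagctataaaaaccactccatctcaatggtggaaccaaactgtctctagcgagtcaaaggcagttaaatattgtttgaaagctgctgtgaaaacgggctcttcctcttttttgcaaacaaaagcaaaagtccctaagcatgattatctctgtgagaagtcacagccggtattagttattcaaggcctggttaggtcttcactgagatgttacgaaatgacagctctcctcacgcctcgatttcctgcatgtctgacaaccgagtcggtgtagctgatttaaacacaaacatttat

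The second set holds intronic regions with higher accessibility in URE. Capitals mark the CEBP motif TTGCNNAA on either strand, present 2 times in the Lmo2 and the Satb1 region, 1 time in the Mecom region and absent from the printed bases of the Prdm16 region.
Lmo2 chr2:103966203-103966502: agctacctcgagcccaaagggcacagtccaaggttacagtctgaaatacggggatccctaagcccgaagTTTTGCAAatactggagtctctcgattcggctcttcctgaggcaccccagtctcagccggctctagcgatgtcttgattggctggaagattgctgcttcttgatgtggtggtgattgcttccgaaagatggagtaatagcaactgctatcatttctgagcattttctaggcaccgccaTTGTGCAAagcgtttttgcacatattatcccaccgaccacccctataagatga
Satb1 chr17:51822221-51822492: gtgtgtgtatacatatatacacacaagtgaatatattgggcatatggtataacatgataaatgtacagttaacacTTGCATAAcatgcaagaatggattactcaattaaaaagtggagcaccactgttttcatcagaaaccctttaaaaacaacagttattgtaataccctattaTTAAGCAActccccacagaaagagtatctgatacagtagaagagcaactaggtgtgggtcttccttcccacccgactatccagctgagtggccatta
Mecom chr3:30421815-30422060: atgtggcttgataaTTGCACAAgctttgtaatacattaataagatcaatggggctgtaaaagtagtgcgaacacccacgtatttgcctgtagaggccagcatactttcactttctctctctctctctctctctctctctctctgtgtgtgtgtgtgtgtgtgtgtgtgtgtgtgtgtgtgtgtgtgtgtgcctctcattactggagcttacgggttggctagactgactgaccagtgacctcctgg
Prdm16 chr4:154325412-154325711: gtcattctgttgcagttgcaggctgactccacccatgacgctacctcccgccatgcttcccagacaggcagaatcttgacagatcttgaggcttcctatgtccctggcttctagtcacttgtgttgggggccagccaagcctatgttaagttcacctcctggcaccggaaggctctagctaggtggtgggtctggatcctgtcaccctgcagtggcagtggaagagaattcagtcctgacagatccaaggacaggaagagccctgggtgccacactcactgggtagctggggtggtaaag

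The first comparison asked how the 8 loci differ between URE and WT in stem and progenitor cells. Calls required an adjusted p below 0.05 together with an absolute log2 fold change above 1. Adjusted p is that of edgeR's quasi-likelihood test with Benjamini-Hochberg adjustment over all regions, and errors of fold changes are standard errors. In LSK, 20 regions of the 8 genes were higher and 34 were lower in URE, 31.6% of the 171. Over all regions 37.5% were called (13.6% higher, 23.9% lower). The median log2 fold change was 0.13 at the 8 genes and 0.14 over all regions, and other scalings moved the latter, to -0.04 with TMM factors from promoter regions and 0.28 with GC content offsets. The split of calls depended on such offsets, with 30 higher and 29 lower for loess offsets against abundance and 34 higher and 31 lower for GC content offsets. By gene, Prdm16 had 8 higher and 12 lower, Mecom 7 and 7, and the other 6 genes together held the remaining 5 higher and 15 lower calls.

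In GMP, 19 regions were higher and 53 lower in URE, 42.1% of the 171 beside 39.7% of all regions (15.6% higher, 24.1% lower). The lower calls made up 31.0% of the regions of the 8 genes. Their median log2 fold change was -0.32, against 0.06 over all regions. With loess offsets 32 were higher and 38 lower, and with GC content offsets 33 and 41. Prdm16 contributed 20 of the lower calls, Mecom 14, Hlf 7, Sox4 and Lmo2 5 each, and Myb and Satb1 1 each.

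Across cell types, 27 regions (15.8%) were lower in URE in both LSK and GMP and 13 (7.60%) were higher in both, beside 18.7% and 8.45% of all regions. Called in LSK only were 7 lower and 7 higher regions (4.09% each, beside 5.11% and 5.06% of all regions). In GMP only, 26 regions (15.2%) were lower and 6 (3.51%) higher, beside 5.22% and 7.12% of all regions. No member region was called in opposite directions. The Pearson correlation of the 2 genotype log2 fold changes across the 171 regions was 0.80, and across all regions 0.82. These contrasts share no libraries, although neighbouring regions are not independent.

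**Figure D1:**
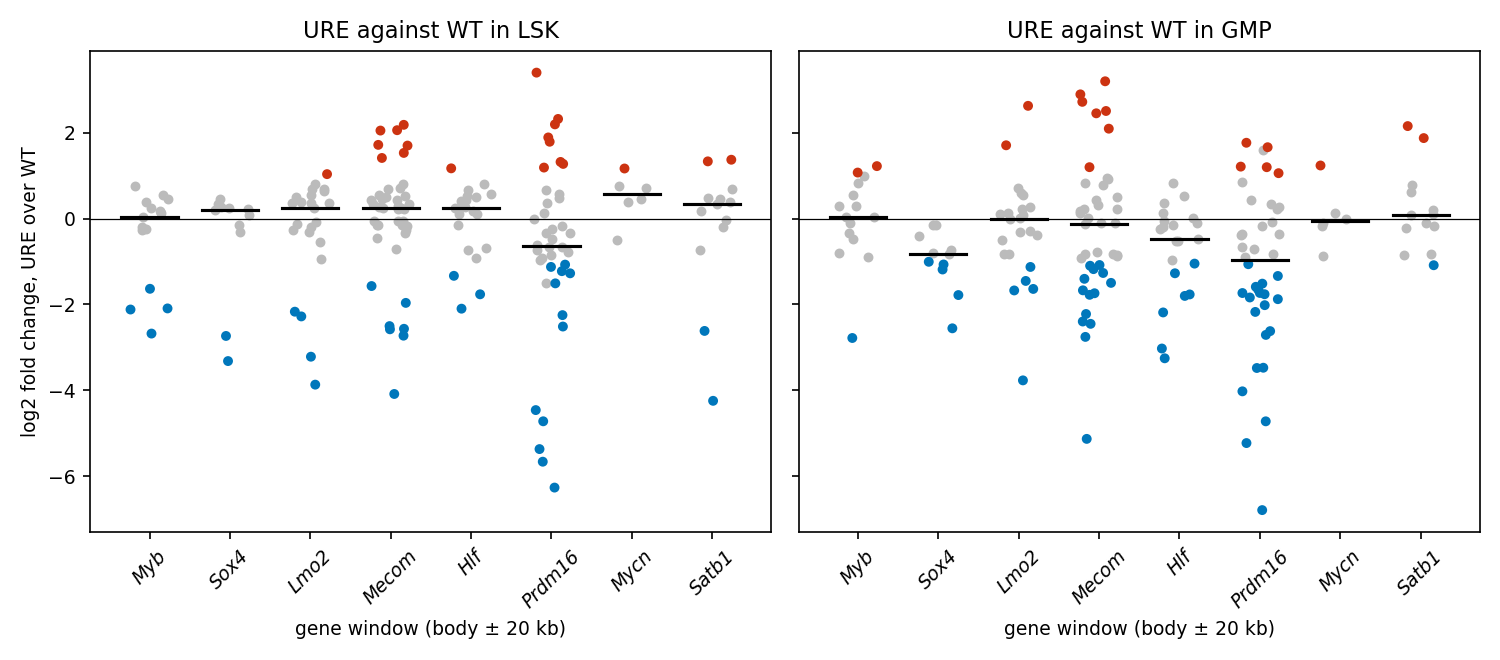
Each point is an open region in the window of the gene on the x axis, placed by its log2 fold change of URE over WT in LSK (left) and GMP (right). Red and blue points were called higher and lower, grey points were not called, and black bars are medians. Prdm16 and Mecom, the genes with the most regions, hold most of the calls. In LSK 50% of the Prdm16 and 33.3% of the Mecom regions were called, beside 37.5% of all regions. In GMP these shares were 62.5% and 50%, beside 39.7%. The median in GMP lies at -0.97 for Prdm16, -0.83 for Sox4 and -0.47 for Hlf and between -0.12 and 0.084 for the other genes.

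Prdm16, a zinc finger factor needed to maintain blood stem cells, lies on the minus strand of chromosome 4 from 154316125 to 154636873. Its intronic region at chr4:154500249-154500578, 136.5 kb inside the gene and holding the PU.1 motif printed above, had the smallest p of the 171 regions in LSK. It read 5.85, 6.0 and 5.45 CPM in WT-LSK and 0.0714, 0.0558 and 0.0854 CPM in URE-LSK (log2 fold change -6.26 ± 0.36, adjusted p = 3.5e-09). In GMP it read 1.88, 2.71 and 3.13 CPM in WT and 0, 0.0347 and 0.0242 CPM in URE, where no library had more than 2 counts. Summed over the libraries there were 310 counts in WT-GMP and 3 in URE-GMP, a ratio of 131 after scaling (exact 95% interval 44.3 to 637, counting error only; adjusted p = 1.5e-08). The WT and URE libraries did not overlap in either cell type.

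A cluster of 3 adjacent intronic regions between 154463946 and 154465456, about 172 kb inside the gene, also fell. These were chosen after their values were seen. The outermost, at chr4:154465159-154465456, also held the PU.1 motif and went from 4.88, 5.51 and 6.98 CPM in WT-LSK to 0.0952, 0.0837 and 0.150 in URE-LSK (-5.66 ± 0.44, adjusted p = 4.0e-08). Its neighbours fell by 5.37 ± 0.50 and by 4.46 ± 0.36 on the log2 scale in LSK. In URE-GMP 2 of the 3 regions had at most 3 counts in every library. The outermost had 138 counts over the WT-GMP libraries and 4 over the URE-GMP libraries (ratio 43.6, interval 16.7 to 162), and its neighbour 82 and 6 (ratio 17.3, interval 7.61 to 48.5).

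Further towards the start site, an intronic region at chr4:154519649-154519962 was the Prdm16 region with the smallest p in GMP. It read 3.85, 4.49 and 4.89 CPM in WT-GMP and 0.387, 0.486 and 0.291 CPM in URE-GMP (-3.48 ± 0.22, adjusted p = 1.4e-08). In LSK it went from 9.37, 8.85 and 8.93 CPM to 1.86, 1.84 and 2.01 CPM (-2.25 ± 0.19, adjusted p = 7.3e-08). The fall was larger in GMP: the interaction, which subtracts the URE effect in LSK from that in GMP, was -1.23 ± 0.28 (adjusted p = 0.0075).

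Of the 8 Prdm16 gains in LSK, 6 lay towards its downstream end, 237.0 to 311.3 kb from the start site. The region at chr4:154325392-154325731, 311.3 kb from the start site, was nearly closed in WT-LSK with 0.289, 0.0408 and 0.261 CPM and read 2.43, 2.32 and 2.14 CPM in URE-LSK (3.40 ± 0.41, adjusted p = 3.1e-06). In GMP it stayed low, with 0.167, 0.231 and 0.254 CPM in WT and 0.387, 0.226 and 0.242 CPM in URE, and the interaction was -3.06 ± 0.63 (adjusted p = 0.0036). Another intronic region, at chr4:154376084-154376649, rose in both cell types, from 5.43, 4.57 and 4.91 to 19.7, 11.4 and 20.5 CPM in LSK (1.79 ± 0.29, adjusted p = 7.2e-05) and from 1.09, 1.55 and 2.42 to 6.29, 3.68 and 7.73 CPM in GMP (1.77 ± 0.31, adjusted p = 0.00014). All 5 Prdm16 regions called higher in GMP lay 237.0 to 302.0 kb from the start site and were also called higher in LSK. A region within the same stretch, 246.1 kb from the start site and chosen after its values were seen, fell (-1.07 ± 0.25 in LSK and -1.73 ± 0.27 in GMP).

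At chr4:154412597-154412871, a region opened in WT on the way from LSK to GMP, from 0.236, 0.245 and 0.161 CPM to 1.67, 2.37 and 1.68 CPM (3.19 ± 0.48, adjusted p = 4.3e-05). In URE it read 0.167, 0.0279 and 0.0214 CPM in LSK and 0.0431, 0.0347 and 0.145 CPM in GMP. The genotype difference in GMP was -4.72 ± 0.54 (adjusted p = 2.5e-06). The interaction of -3.23 ± 0.98 (adjusted p = 0.033) rested on libraries with few counts. It did not pass without any 1 of the WT-LSK libraries, URE-LSK replicate 1, WT-GMP replicate 2, URE-GMP replicate 1 or URE-GMP replicate 2 (-3.29 to -1.77, adjusted p of 0.053 to 0.46), with the smallest difference without URE-LSK replicate 1.

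**Figure D2:**
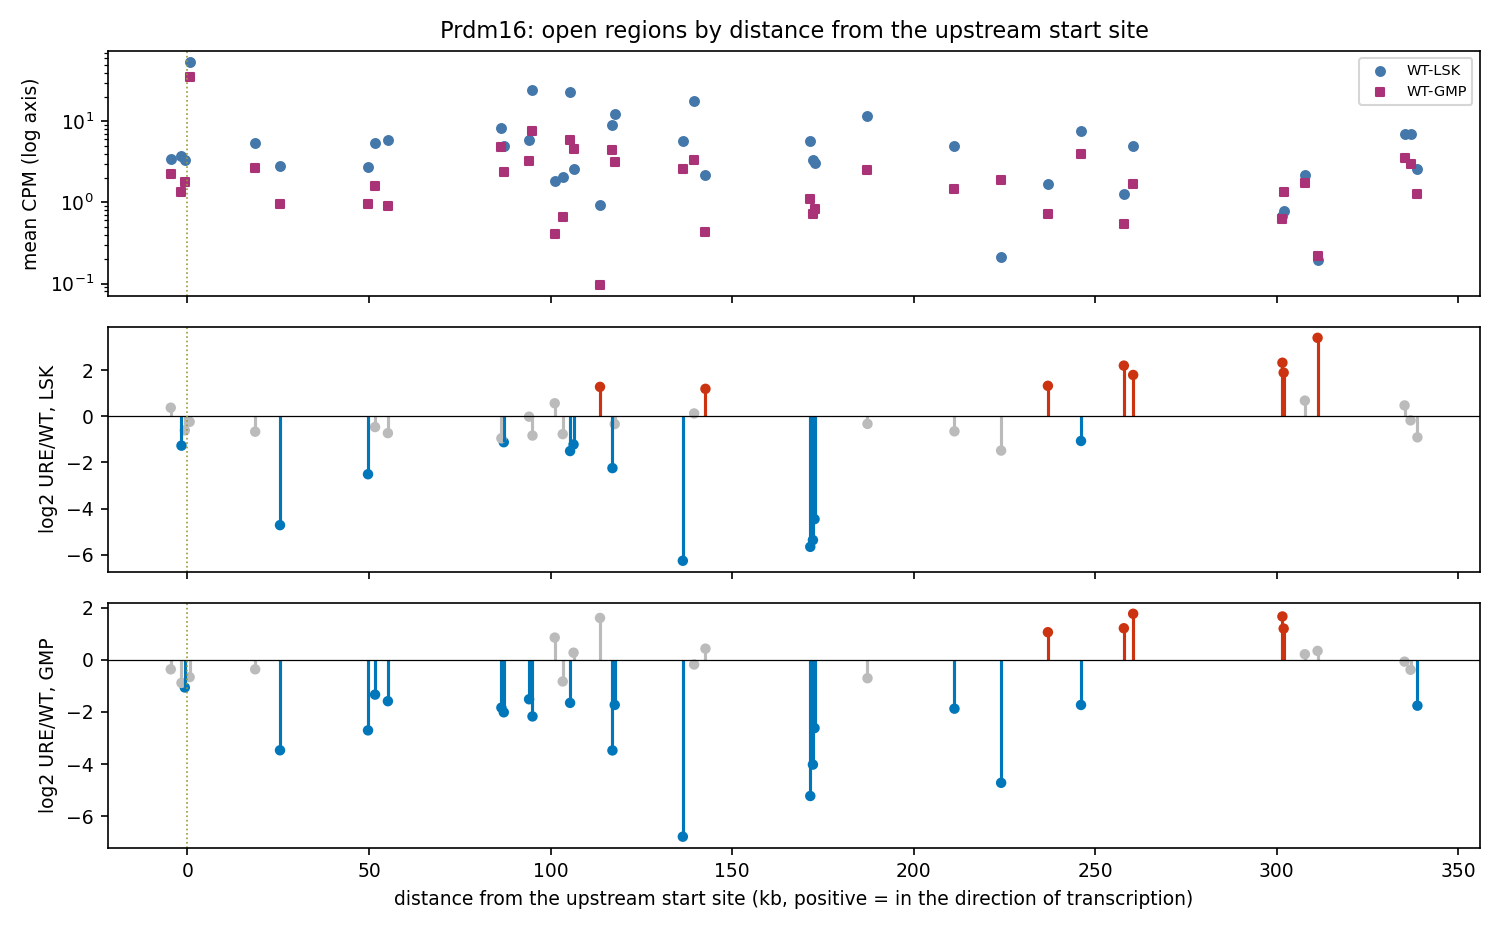
Open regions of Prdm16 by distance from its start site in kb (dotted line, positive in the direction of transcription). The top panel gives mean CPM in WT-LSK and WT-GMP on a log axis, and the lower panels give log2 fold changes of URE over WT, with red and blue for regions called higher and lower. Deep falls at 25.5, 136.5 and about 172 kb appear in both cell types, and the gains shared by both lie between 237.0 and 302.0 kb; fitted values of regions at or under 3 counts in URE-GMP depend on the prior count.

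Mecom encodes Evi1 and the longer Mds1-Evi1 protein, regulators of stem cell self-renewal that are rearranged in aggressive myeloid leukaemia. It spans 596.7 kb of chromosome 3, from 29951296 to 30548008, with 6 annotated start sites. In LSK 7 of its 42 regions rose and 7 fell (16.7% each), beside 13.6% and 23.9% of all regions. In GMP 7 rose (16.7%) and 14 fell (33.3%), beside 15.6% and 24.1%. Of the Mecom regions, 6 were higher and 7 lower in both (14.3% and 16.7%), beside 8.45% and 18.7% of all regions.

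The Mecom region with the smallest p among the LSK falls, at chr3:29991623-29991913, carries 2 copies of the PU.1 motif (printed above). It read 2.49, 2.73 and 2.27 CPM in WT-LSK against 0.357, 0.502 and 0.278 CPM in URE-LSK (-2.73 ± 0.31, adjusted p = 2.1e-06). The GMP values went from 0.879, 0.902 and 1.01 to 0.0861, 0.191 and 0.121 CPM (-2.75 ± 0.36, adjusted p = 1.0e-05). No URE library reached the lowest WT library of its cell type.

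In GMP the call with the smallest p was an intronic region 3.8 kb upstream of an internal start site, at chr3:30144139-30144370. Accessibility there rose in WT from 0.761, 0.938 and 1.37 CPM in LSK to 2.80, 2.16 and 2.54 CPM in GMP, whereas URE libraries read 0.119, 0.335 and 0.107 CPM in LSK and 0.0861, 0.0867 and 0.0242 CPM in GMP. The genotype effect was -2.50 ± 0.44 for LSK (adjusted p = 0.00015) and -5.13 ± 0.48 for GMP (adjusted p = 3.7e-07). Their difference, -2.63 ± 0.70, had an adjusted p of 0.017, which became 0.078 (-1.96) without URE-LSK replicate 2.

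Of the 6 Mecom regions higher in both cell types, 5 lay in the long intron behind the upstream start site. At chr3:30421815-30422060, 87.8 kb from that site, WT-LSK read 1.39, 0.938 and 0.985 CPM and URE-LSK 3.40, 3.54 and 3.89 CPM (1.70 ± 0.24, adjusted p = 1.7e-05). In GMP the values rose from 0.377, 0.462 and 0.645 to 2.17, 1.93 and 2.42 CPM (2.09 ± 0.26, adjusted p = 5.7e-06). The region at chr3:30438041-30438342, 71.5 kb from the site, had the smallest p of the Mecom gains in GMP, where it rose from 0.167, 0.441 and 0.461 to 2.95, 3.54 and 4.02 CPM (3.20 ± 0.34, adjusted p = 1.1e-06). Its LSK change was 1.53 ± 0.31 (adjusted p = 0.00059), and the interaction of 1.67 ± 0.46 (adjusted p = 0.021) had adjusted p = 0.085 without WT-LSK replicate 3 and 0.053 without URE-LSK replicate 1. The other three lay 22.1, 55.1 and 55.8 kb from the site. Outside this stretch, chr3:30244603-30244802 was higher in both cell types (1.41 in LSK and 2.51 in GMP), chr3:30043643-30043867 was called higher in LSK only (1.72) and chr3:30407753-30407958 in GMP only (1.20). The call at chr3:30043643-30043867 rested on 2, 2 and 5 counts in WT-LSK and 5, 8 and 21 in URE-LSK. It was lost without WT-LSK replicate 1 or 2 (adjusted p = 0.091 and 0.052) or URE-LSK replicate 3 (1.05, adjusted p = 0.16). In GMP that region rose by 0.91 ± 0.34 (adjusted p = 0.028), short of the fold threshold. With loess (1.78) and GC content offsets (1.39) it was called there too.

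Falls also occurred in this intron. Between the gains, a region at chr3:30466349-30466574, 43.3 kb from the start site and chosen after its values were seen, was lower in both cell types (-2.57 ± 0.34, adjusted p = 1.0e-05 in LSK and -1.74 ± 0.39, adjusted p = 0.0011 in GMP). A PU.1 motif region at chr3:30410870-30411096, chosen after its values were seen and 98.8 kb from the start site, went from 2.57, 4.32 and 3.20 CPM in WT-LSK to 0.167, 0.279 and 0.150 CPM in URE-LSK (-4.08 ± 0.54, adjusted p = 9.5e-06). In GMP the change was -1.77 ± 0.47 (adjusted p = 0.0039).

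**Figure D3:**
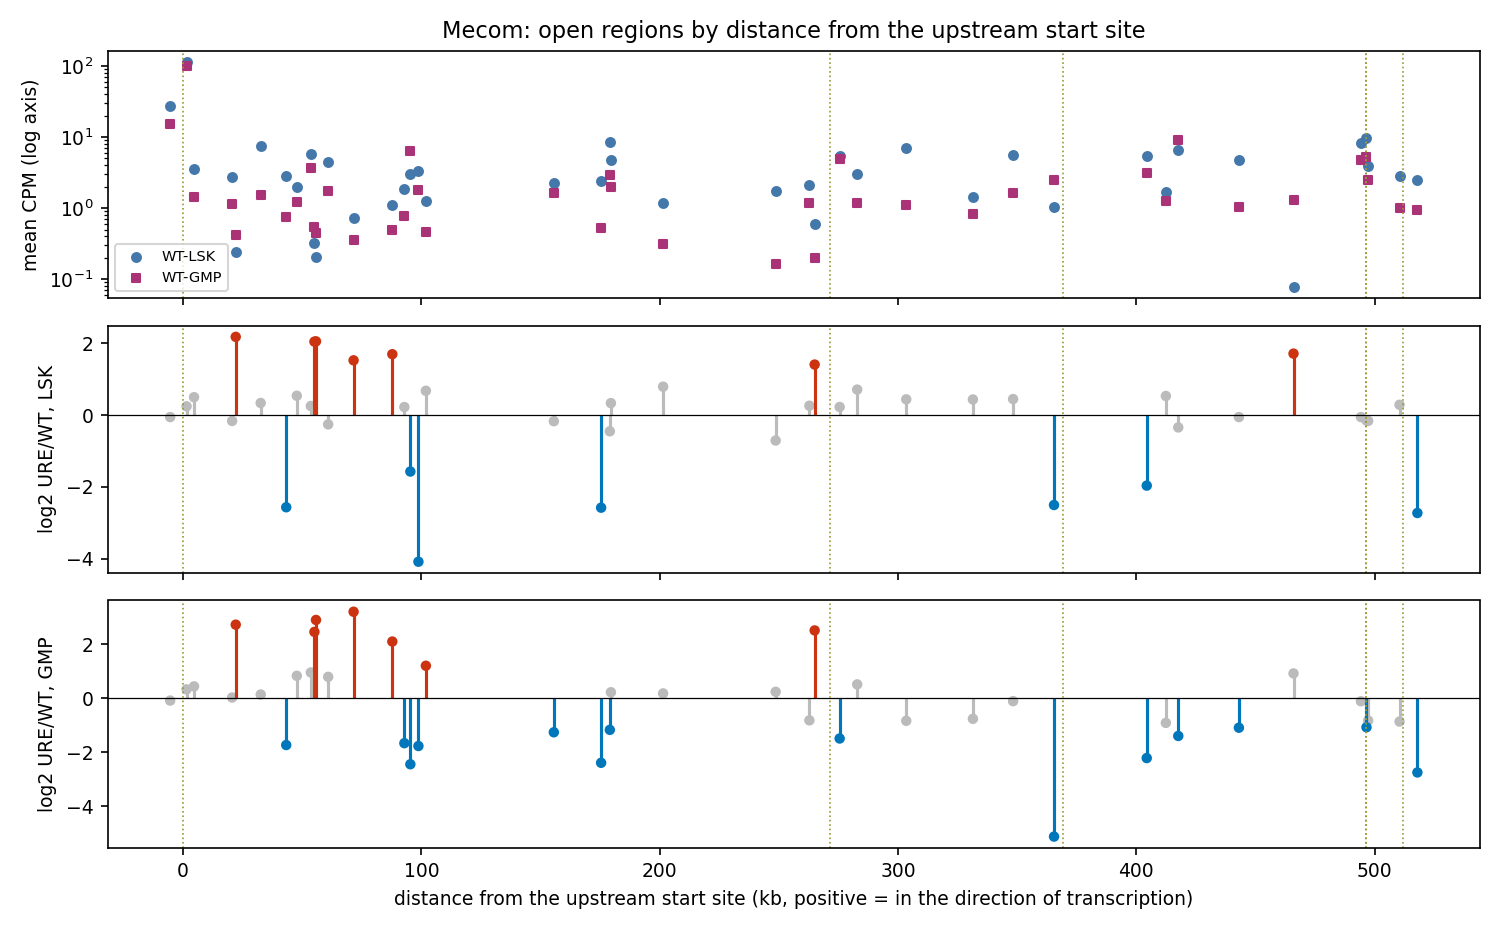
Open regions of Mecom by distance in kb from its upstream start site, with all annotated start sites as dotted lines; panels and colours are those of the plot for Prdm16. Red stems between 22.1 and 87.8 kb mark 5 regions called higher in URE in both cell types, and blue stems occur between them, at 43.3 kb, and beyond them.

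Hlf, a bZIP factor that marks the most immature blood stem cells, lies on chromosome 11 from 90336536 to 90390895. Its region at chr11:90364924-90365270, in an intron 25.8 kb from the start site, had the smallest p among the falls in both cell types. WT-LSK read 5.35, 5.47 and 4.22 CPM and URE-LSK 1.57, 1.48 and 1.37 CPM (-1.76 ± 0.24, adjusted p = 1.3e-05). WT-GMP read 1.34, 1.49 and 2.49 CPM and URE-GMP 0.194, 0.191 and 0.170 CPM (-3.25 ± 0.31, adjusted p = 4.7e-07). The interaction was -1.49 ± 0.40 (adjusted p = 0.017), with adjusted p = 0.056 without WT-LSK replicate 3 and 0.055 without WT-GMP replicate 3.

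No Hlf region was called higher in URE-GMP, and 7 (33.3%) were lower, beside 15.6% and 24.1% of all regions. In LSK 3 were lower and a single coding exon region at chr11:90340597-90340825 was higher, with 0.840, 1.26 and 1.15 CPM in WT and 2.17, 2.71 and 2.41 CPM in URE (1.17 ± 0.28, adjusted p = 0.0023). That call did not hold without WT-LSK replicate 1 (0.95). In LSK the lower and higher calls were 14.3% and 4.76% of the Hlf regions, beside 23.9% and 13.6% of all regions. From LSK to GMP in WT, 16.8% of all regions were called lower and 21.0% higher. At Hlf, 10 of 21 (47.6%) were called lower in this step and none higher. The most significant, at chr11:90334569-90335787 beyond the end of the gene, dropped from 8.53, 7.79 and 10.6 CPM to 0.920, 0.881 and 1.24 CPM (-3.13 ± 0.24, adjusted p = 1.4e-07).

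Lmo2, a LIM-domain adaptor that joins Tal1 and GATA factors in 1 complex, is transcribed from the plus strand of chromosome 2 between 103957986 and 103981878. An intronic region without an exact match to the PU.1 motif, at chr2:103961981-103962281, fell to a similar extent in both cell types. The values were 2.68, 3.10 and 3.10 CPM in WT-LSK and 0.214, 0.167 and 0.214 CPM in URE-LSK (-3.87 ± 0.31, adjusted p = 5.2e-08). In GMP they were 2.80, 2.31 and 2.77 CPM in WT and 0.194, 0.260 and 0.0969 CPM in URE (-3.77 ± 0.31, adjusted p = 1.1e-07). The interaction was 0.10 ± 0.46 (adjusted p = 0.92).

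A strong upstream region of Lmo2 differed between cell types instead. At chr2:103944827-103945289, 12.9 kb before the gene's start, WT-LSK read 20.3, 21.9 and 19.5 CPM and URE-LSK 3.21, 5.53 and 4.02 CPM (-2.28 ± 0.18, adjusted p = 6.0e-08). WT-GMP read 24.2, 18.6 and 20.5 CPM and URE-GMP 11.7, 13.9 and 10.1 CPM (-0.82 ± 0.17, adjusted p = 0.0007). The fall in LSK was larger by 1.46 ± 0.25 on the log2 scale (adjusted p = 0.0011).

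A pair of neighbouring intronic regions of Lmo2 opened towards GMP. The region at chr2:103966774-103967156 rose in WT from 0.315, 0.245 and 0.282 CPM in LSK to 6.36, 6.69 and 3.80 CPM in GMP (4.29 ± 0.34, adjusted p = 1.5e-07). Its higher level in URE-LSK (1.04 ± 0.39, adjusted p = 0.032) was lost in 7 of the fits that left out a library and rested mostly on replicate 3 (0.53 without it). At chr2:103966188-103966502, with 2 CEBP motifs, WT-GMP read 0.962, 0.734 and 0.277 CPM and URE-GMP 3.94, 4.79 and 3.0 CPM (2.63 ± 0.39, adjusted p = 3.0e-05).

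Myb, which sustains the proliferation of progenitors, lies on chromosome 10 from 21124935 to 21160984. None of its 15 regions was called lower from LSK to GMP in WT, beside 16.8% of all regions. In contrast to Prdm16, Mecom and Hlf, 6 (40%, beside 21.0% of all regions) were called higher. The largest of these in counts, at chr10:21146217-21147778, overlaps coding exons 13.9 kb inside the gene. In LSK it read 3.49, 3.02 and 4.08 CPM for WT and 4.66, 3.10 and 6.15 CPM for URE. In GMP the levels were 38.5, 26.8 and 19.0 CPM for WT and 69.4, 65.9 and 60.3 CPM for URE. The WT step was 2.97 ± 0.25 (adjusted p = 2.1e-07). URE-GMP lay above WT-GMP by 1.22 ± 0.22 (adjusted p = 0.00015).

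Upstream within the same gene, accessibility fell in URE-LSK. The PU.1 motif region at chr10:21151420-21151677 went from 2.94, 2.33 and 2.77 to 0.381, 0.475 and 0.406 CPM in LSK (-2.68 ± 0.29, adjusted p = 1.3e-06). In GMP it read 5.10, 3.44 and 2.90 CPM in WT and 3.79, 2.93 and 2.23 CPM in URE, and these overlapped. The interaction was 2.34 ± 0.38 (adjusted p = 0.00078). A stronger region at chr10:21153503-21154180, 7.1 kb from the start site, dropped from 15.0, 13.8 and 14.3 to 3.16, 3.32 and 3.44 CPM in LSK (-2.12 ± 0.19, adjusted p = 1.5e-07). In GMP it went from 17.9, 15.2 and 15.7 to 9.82, 10.3 and 5.84 CPM (-0.91 ± 0.18, adjusted p = 0.00039), a smaller change by 1.21 ± 0.26 (adjusted p = 0.0045). The only Myb region called lower in GMP was intergenic, at chr10:21118412-21118670, from 2.34, 1.78 and 2.56 to 0.431, 0.330 and 0.194 CPM (-2.78 ± 0.35, adjusted p = 6.6e-06). It was also called lower in LSK, from 1.57, 1.84 and 1.95 to 0.428, 0.893 and 0.427 CPM (-1.63 ± 0.34, adjusted p = 0.00064). The LSK call missed the fold threshold with loess offsets (-0.89).

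Sox4, an HMG-box factor that cooperates with other oncogenes in leukaemia, is a short gene on chromosome 13 from 28948919 to 28953713. None of its 11 regions was called higher in URE, beside 13.6% of all regions in LSK and 15.6% in GMP. Called lower were 2 in LSK (18.2%) and 5 in GMP (45.5%), beside 23.9% and 24.1% of all regions. Downstream of the gene, at chr13:28945600-28946032, both cell types lost signal, from 5.14, 6.0 and 6.43 to 0.833, 0.837 and 0.961 CPM in LSK (-2.73 ± 0.21, adjusted p = 3.0e-08) and from 3.81, 4.20 and 4.91 to 0.796, 0.763 and 0.630 CPM in GMP (-2.55 ± 0.21, adjusted p = 1.1e-07). Other regions differed in GMP and not detectably in LSK. At chr13:28942684-28943467, at the start of the non-coding gene Gm26735, LSK read 17.1, 16.1 and 16.9 CPM for WT and 19.7, 16.4 and 21.2 CPM for URE, and GMP read 14.3, 12.9 and 19.3 CPM for WT and 6.44, 7.27 and 9.47 CPM for URE. The GMP effect of -1.01 ± 0.17 (adjusted p = 0.0001) was just past the fold threshold, which it missed with DESeq2 (-0.94), RLE (-0.94), GC content offsets (-0.50) and the replicate block (-0.998), and without WT-GMP replicate 3 (-0.80), URE-GMP replicate 1 (-0.89) or URE-GMP replicate 2 (-0.96). The interaction there was -1.20 ± 0.24 (adjusted p = 0.0029). It had a log2 value of -0.93 without WT-GMP replicate 3, short of the fold threshold.

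Mycn, a Myc family member, lies on chromosome 12 from 12936093 to 12941914 and had 1 called region in either genotype contrast. At chr12:12924506-12924837, downstream of the gene, levels were 0.892, 0.571 and 0.985 CPM in WT-LSK and 1.21, 1.28 and 3.12 CPM in URE-LSK (1.17 ± 0.33, adjusted p = 0.0066), where URE-LSK replicate 3 stood apart and the log2 value was 0.57 without it and 0.95 without WT-LSK replicate 2. In GMP, WT read 3.56, 3.90 and 3.87 CPM and URE 7.90, 8.86 and 10 CPM (1.24 ± 0.28, adjusted p = 0.0013).

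Satb1, a chromatin organiser active in lymphoid and stem cells, spans chromosome 17 from 51736187 to 51833290. Its region at chr17:51784950-51785299, 25.8 kb from the nearest start site, had the most positive interaction of the 171 regions. WT-LSK read 3.20, 3.67 and 1.99 CPM and URE-LSK 0.0714, 0.112 and 0.256 CPM (-4.24 ± 0.39, adjusted p = 1.8e-07). WT-GMP read 8.16, 8.33 and 6.78 CPM and URE-GMP 3.77, 4.48 and 2.67 CPM (-1.09 ± 0.26, adjusted p = 0.0021). The interaction was 3.16 ± 0.48 (adjusted p = 0.00046). The GMP call did not hold with GC content offsets (-0.56, adjusted p = 0.055), with loess offsets (-0.88) or without URE-GMP replicate 3 (-0.91). Closer to a start site, at chr17:51822221-51822492, GMP values rose from 0.711, 1.09 and 0.530 CPM in WT to 4.22, 3.70 and 2.59 CPM in URE (2.15 ± 0.33, adjusted p = 3.9e-05).

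**Figure D4:**
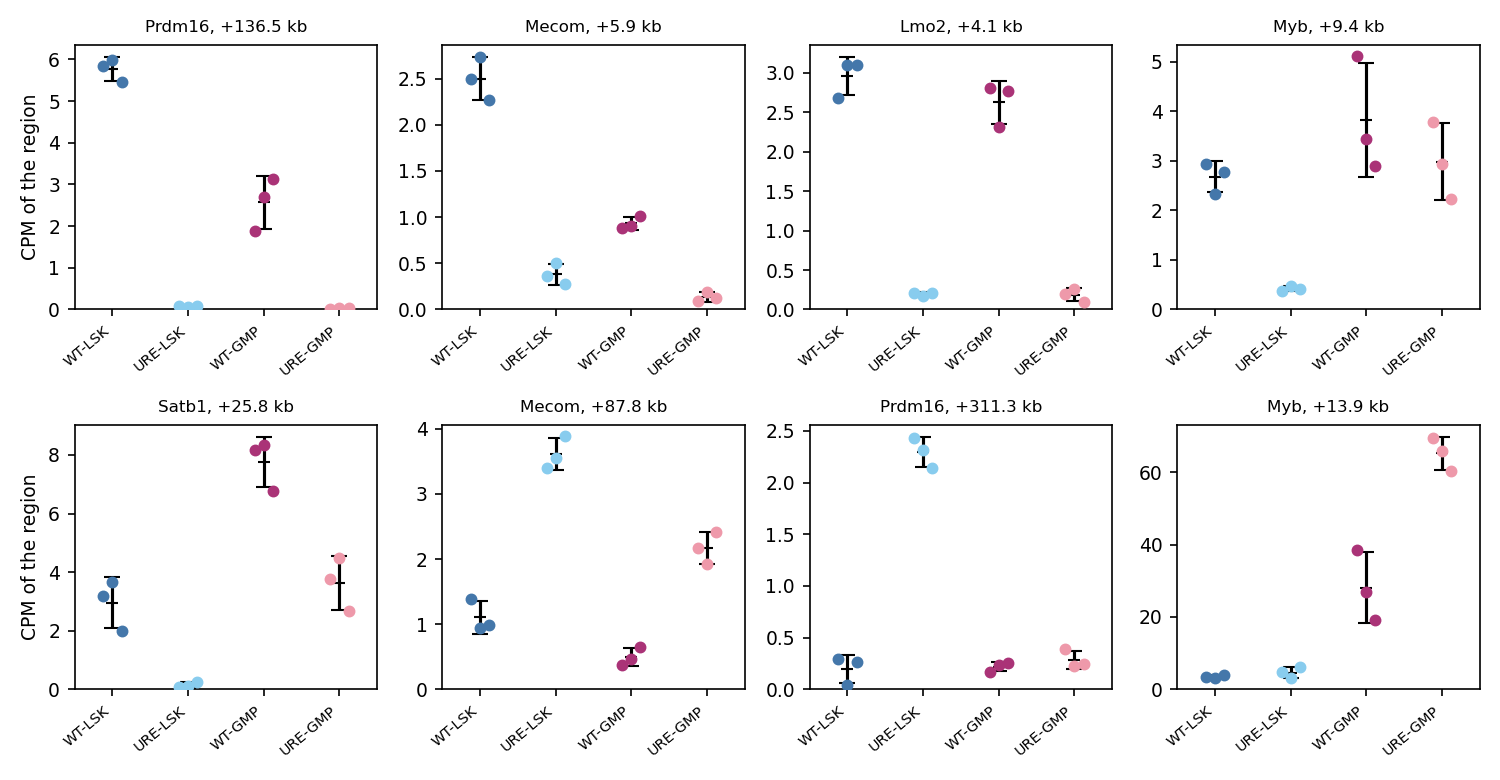
CPM of 8 regions in each library, named by gene and distance in kb from the nearest start site of that gene. Points are the 3 libraries of a group, and black marks and bars give their mean and SD; each panel has its own scale from 0. The Prdm16, Mecom and Lmo2 regions of the upper row are low in URE in both cell types, the Myb region at 9.4 kb and the Satb1 region are lowest in URE-LSK, and the Prdm16 region at 311.3 kb is high in URE-LSK alone.

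Taking the most counted region within 500 bp of a start site of each of the 8 genes, none was called in either genotype contrast or in the WT step, and changes with an adjusted p under 0.05 stayed under the fold threshold. Among all 13 regions at start sites of these genes, 1 was called in LSK and 2 in GMP, all lower. These were a weak Lmo2 region at chr2:103958258-103958469 (-2.17 ± 0.36 in LSK and -1.13 ± 0.28 in GMP) and the Mecom region at chr3:30012883-30013391 (-1.08 ± 0.21 in GMP). Among the 23 promoter regions of the windows, those of other genes included, 2 were called in LSK (8.70%) and 7 in GMP (30.4%), beside 11.5% and 13.0% of all promoter regions. The Prdm16 promoter read 53.1, 52.8 and 57 CPM in WT-LSK and 47.8, 47.8 and 42.2 CPM in URE-LSK (-0.24 ± 0.10, adjusted p = 0.044). In GMP it went from 40.5, 32.6 and 34.2 to 23.0, 20.2 and 24.3 CPM (-0.67 ± 0.10, adjusted p = 3.0e-05). The Mycn promoter was higher in URE-LSK, with 66.8, 67.9 and 63.5 CPM in WT and 88, 85 and 84.6 CPM in URE (0.38 ± 0.10, adjusted p = 0.0056). Its second promoter region, chr12:12940139-12941101, went there from 16.03, 17.3 and 20.6 to 31.5, 30.0 and 30.1 CPM (0.76 ± 0.18, adjusted p = 0.0022), below the fold threshold, and was called lower in the WT step (-1.37 ± 0.19, adjusted p = 2.2e-05).

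Lower in GMP were also the promoters of Sox4, from 106, 86.4 and 91.0 to 70.5, 74.9 and 68.8 CPM (-0.40 ± 0.09, adjusted p = 0.001), and Lmo2 (-0.28 ± 0.10, adjusted p = 0.023). Higher were Myb in GMP (0.28 ± 0.08, adjusted p = 0.0075), Hlf in LSK (0.41 ± 0.15, adjusted p = 0.028) and the upstream promoter of Mecom in LSK (0.25 ± 0.06, adjusted p = 0.0032) and GMP (0.32 ± 0.06, adjusted p = 0.00035). The median log2 fold change over all promoter regions was itself 0.22 in LSK and 0.16 in GMP. With loess offsets against abundance the Mecom value in LSK turned to -0.11. For Satb1, whose promoter read 54.7, 50.5 and 50.4 CPM in WT-LSK and 44.9, 50.4 and 41.0 CPM in URE-LSK, neither contrast passed the test.

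For a total per locus, counts were summed over all regions in the window of each of 18435 protein-coding genes and tested in the same way. Such a sum weighs regions by their counts, so a few strong regions can carry it. The median log2 fold change over all these loci was 0.17 in LSK and 0.15 in GMP, and 61.3% of them passed an adjusted p of 0.05 in LSK (47.9% higher, 13.4% lower) and 62.6% in GMP (45.6% higher, 17% lower). Of the 8 loci, 3 passed in each cell type; in LSK this was 1 without WT-LSK replicate 3 and 5 without WT-GMP replicate 1. With TMM factors from promoter regions, which brought the median over all loci to about 0, 5 loci passed in LSK (1 higher, 4 lower) and 6 in GMP (1 higher, 5 lower).

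The Prdm16 locus was lower in both cell types. Of its 40 regions 34 overlap the gene body. The window also takes in parts of Arhgef16 and B230104I21Rik, and the 6 gains at the downstream end have the start site of B230104I21Rik as their nearest. The locus summed to 257, 258 and 305 CPM in WT-LSK and 226, 214 and 212 CPM in URE-LSK (-0.33 ± 0.10, adjusted p = 0.0094), a change that did not pass with loess offsets (-0.20, adjusted p = 0.14), with GC content offsets (-0.24, adjusted p = 0.060) or without WT-LSK replicate 3 (-0.31, adjusted p = 0.053). In GMP the sums were 114, 109 and 135 CPM in WT and 75.2, 60.8 and 84.7 CPM in URE (-0.70 ± 0.10, adjusted p = 2.8e-05). Sox4 fell in GMP, from 233, 193 and 212 to 150, 157 and 153 CPM (-0.47 ± 0.07, adjusted p = 2.9e-05), and its interaction was -0.52 ± 0.10 (adjusted p = 0.0015).

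Myb rose in GMP, from 231, 187 and 162 to 263, 243 and 231 CPM (0.35 ± 0.09, adjusted p = 0.0042), with 0.15 and an adjusted p of 0.089 when the window was extended to 50 kb. Mycn rose in LSK, from 114, 116 and 111 to 156, 150 and 156 CPM (0.44 ± 0.09, adjusted p = 0.00081). Hlf rose in LSK from 130, 128 and 130 to 164, 162 and 138 CPM (0.26 ± 0.07, adjusted p = 0.0044), near the median of all loci, and did not pass with library size alone (0.14, adjusted p = 0.062), with promoter TMM (0.08, adjusted p = 0.29) or when any WT-LSK library was left out (0.19 to 0.20, adjusted p up to 0.062). For Mecom, where gains and falls were mixed, the LSK sums were 263, 272 and 286 CPM for WT and 300.04, 318 and 272 CPM for URE, the GMP sums were 175, 179 and 211 CPM for WT and 191, 208 and 210 CPM for URE, and no genotype contrast passed. Both passed with RLE (0.16 in LSK and 0.16 in GMP), DESeq2 (0.16 and 0.16) and GC content offsets (0.27, adjusted p = 0.0049, and 0.25, adjusted p = 0.0068), GMP also without WT-GMP replicate 3 (0.21, adjusted p = 0.012), whereas TMM factors from promoter regions gave -0.0610 and -0.054.

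**Figure D5:**
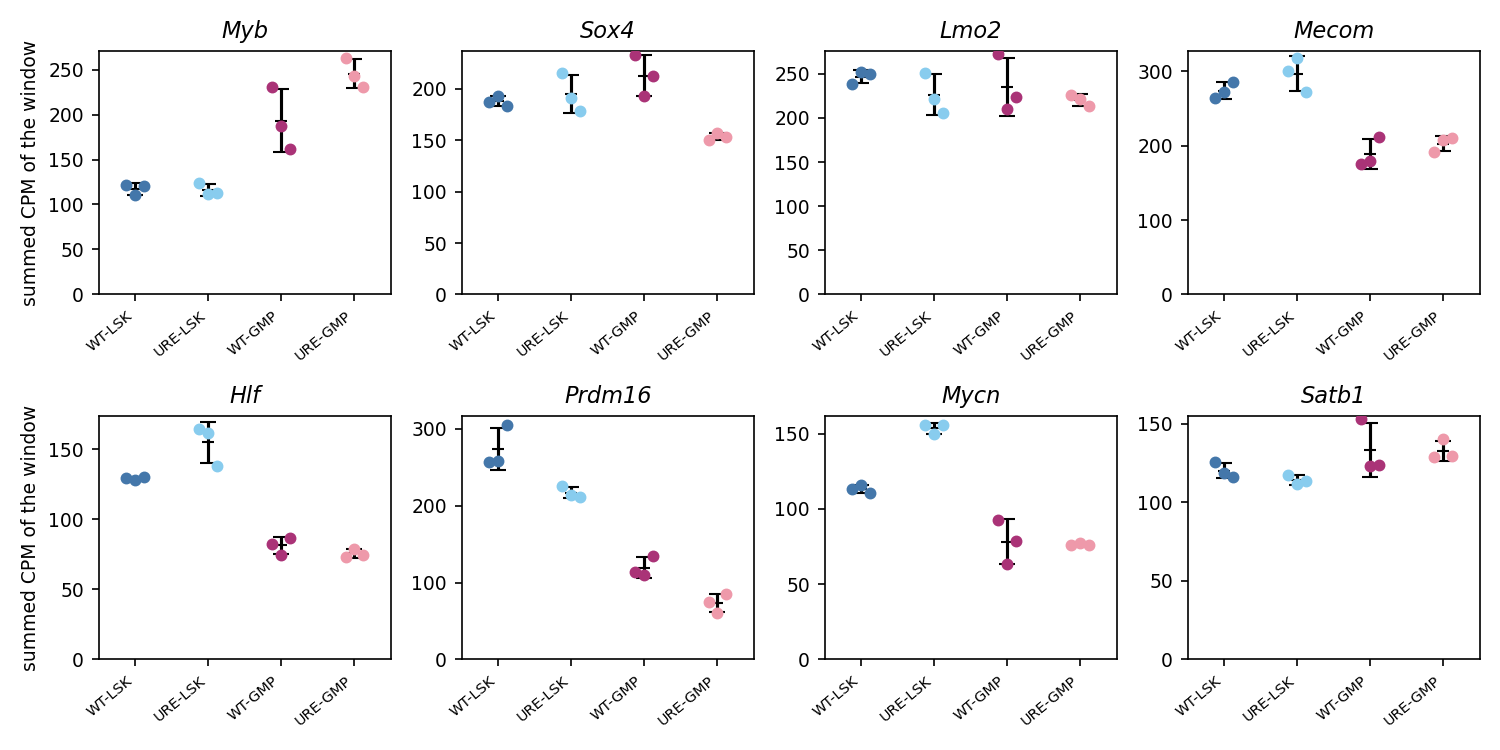
Summed CPM of all open regions in the window of each gene, per library and group, with black marks and bars for the mean and SD of 3 libraries and a y axis from 0 in every panel. Prdm16 is lower in URE in both cell types, Sox4 in GMP, and Mycn is higher in URE-LSK. Prdm16, Mecom, Hlf and Mycn are lower in WT-GMP than in WT-LSK, and Myb is higher.

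The second comparison followed the step from LSK to GMP within a genotype. It shares its libraries with the genotype contrasts, so the values are given side by side. In WT, 22 regions of the 8 genes were higher and 61 lower in GMP, 48.5% of the 171 beside 37.8% of all regions (21.0% higher, 16.8% lower). The lower calls were 35.7% of the regions, and the median log2 change was -0.76, against -0.01 over all regions. Prdm16 lost 25 of its 40 regions and gained 1, Mecom lost 20 of 42 and gained 3, and Hlf lost 10 of 21. Satb1, in turn, gained 6 regions and lost 1, and Lmo2 gained 5 and lost 3.

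Examples of regions that close are the Prdm16 region 187.3 kb inside the gene, from 10.9, 11.6 and 12.6 to 2.51, 2.08 and 2.88 CPM (-2.23 ± 0.20, adjusted p = 3.3e-07), and the Mecom region at chr3:30260940-30261191, from 1.57, 1.67 and 1.93 to 0.0837, 0.126 and 0.277 CPM (-3.31 ± 0.39, adjusted p = 4.5e-06). Satb1 opened most clearly at chr17:51741233-51741438, from 0.131, 0.122 and 0.0804 to 2.18, 2.08 and 1.29 CPM (4.05 ± 0.43, adjusted p = 1.7e-06). By locus totals, 55.2% of all loci passed in WT (33.4% higher, 21.8% lower). Prdm16 (-1.20 ± 0.10), Hlf (-0.67 ± 0.07), Mecom (-0.54 ± 0.07) and Mycn (-0.54 ± 0.09) fell, and Myb rose (0.71 ± 0.10), with adjusted p of at most 0.00014. Sox4 was also higher (0.18 ± 0.07, adjusted p = 0.040), but not past the threshold in any of the 6 fits that left out a WT library.

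In URE the step called 28 higher and 87 lower regions, 67.3% of the 171, where 49.1% of all regions were called (27.6% higher, 21.6% lower). Lower calls made up 50.9%. Hlf lost 15 of 21 regions, Prdm16 30 of 40 and Mecom 24 of 42, and Sox4 lost 5 of 11 where it had lost 1 in WT. Locus totals passed for 7 of the 8 genes, beside 61.1% of all loci, and the Sox4 locus, slightly higher in WT-GMP, was lower in URE-GMP than in URE-LSK (-0.34 ± 0.07, adjusted p = 0.0004).

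The difference between the genotype effects of the 2 cell types was tested as an interaction. It was called in 30 regions, 13 with a more positive and 17 with a more negative effect in GMP, or 17.5% of the 171 where 14% of all regions were called (8.96% positive, 5.03% negative). All 4 interaction calls at Hlf and 7 of 9 at Prdm16 were negative, while the 3 at Myb and the 2 each at Lmo2 and Satb1 were positive. Of the 8 locus totals 3 passed, all negative (Sox4, Hlf and Mycn), with 17.9% of all loci passing (8.83% positive, 9.1% negative). With the replicate number as a block 5 passed (1 positive, 4 negative), Myb (0.38, adjusted p = 0.0096) and Prdm16 (-0.38, adjusted p = 0.012) in addition. Without URE-LSK replicate 1 only 1 passed, and without WT-GMP replicate 1 there were 5.

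The sequence motifs of the member regions were counted on both strands as exact matches to the letters given (N is any base). Sites that differ from these letters are missed. The PU.1 motif GAGGAAGT occurred in 21 of the 171 regions (12.3%, and 10.5% of all regions). None of the 21 was called higher in URE, 9 were lower in LSK (42.9%) and 11 in GMP (52.4%). Of all 12706 regions with the motif, 419 were higher in LSK and 566 in GMP, and 51.9% were lower in LSK and 47.2% in GMP. The median log2 fold change of the 21 member regions was -0.73 in LSK and -1.13 in GMP, against 0.23 and -0.18 in the member regions without the motif. Over all regions these medians were -1.13 with and 0.19 without the motif in LSK, and -0.91 and 0.12 in GMP. At Prdm16 3 of 4 motif regions were lower in LSK and all 4 in GMP, at Mecom 3 and 5 of 6, whereas none of the 4 motif regions of Satb1 was called in GMP. Of the lower regions of the 8 genes, 9 of 34 in LSK (26.5%) and 11 of 53 in GMP (20.8%) held the motif, beside 22.7% and 20.6% of all lower regions.

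Of the other motifs, CCGGAAGT (other ETS factors) was in none of the 171 regions and in 1.88% of all regions. The CEBP motif TTGCNNAA was found in 25.1% of the 171 and 20.5% of all regions. Among the regions higher in URE-GMP it was in 9 of 19 (47.4%, and 31.1% of all regions called higher there), and among the regions higher in URE-LSK in 5 of 20 (25%, and 24.2%). The RUNX motif AACCACA was present in 12.9% of the 171 and 17.3% of all regions. A RUNX match occurred in 1 of 20 regions higher in URE-LSK, beside 28.3% of all regions higher there. For GATA factors, AGATAA was present in 16.4% of the 171 and 15.7% of all regions.

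A list of 13 further genes of the same programme (Gata2, Tal1, Lyl1, Erg, Fli1, Runx1, Meis1, Hoxa9, Etv6, Gfi1b, Bcl11a, Ldb1 and Myc) held 362 regions. In LSK 24 were higher and 61 lower (23.5%, beside 37.5% of all regions). In GMP 47 were higher and 90 lower (37.8%, beside 39.7% of all regions). In the WT step 81 opened and 41 closed (33.7%, beside 37.8% of all regions). The list's locus totals passed for 6 higher and 2 lower genes in LSK and 4 higher and 4 lower in GMP. That was 8 of 13 in each cell type, beside 61.3% of all loci in LSK and 62.6% in GMP. Meis1, a cofactor of Hox proteins in stem cells, had the largest fall of the 13 in GMP, from 292, 237 and 296 to 107, 125 and 112 CPM (-1.26 ± 0.10, adjusted p = 2.5e-08), with 26 of its 32 regions called lower. Erg, an ETS factor of stem cells, rose there from 406, 363 and 353 to 477, 480.2 and 473 CPM (0.35 ± 0.05, adjusted p = 4.7e-05).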

How the data were processed

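Sorted LSK and GMP cells of WT and URE mice were profiled by ATAC-seq, with 3 libraries per group, named here by group and replicate number from the labels. The deposited values are raw counts of reads per region, in a single table for all 12 libraries whose columns were all mapped (0 left out). Per the labels and the study's methods, the authors aligned reads to GRCm38 with Bowtie2, removed duplicates and non-primary chromosomes and called peaks for each group with Genrich; the submitters' processing notes also name cutadapt, bedtools and featureCounts. Each region was counted in all libraries, including those of groups in which it is nearly closed. Region starts were taken as 0-based in the table and are printed 1-based, which is an assumption.

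Counts were fitted over all 121336 regions with edgeR 4.0.16 (quasi-likelihood, TMM, 1 coefficient per group, R 4.3.3, limma 3.58.1), and p-values were adjusted by the Benjamini-Hochberg method. filterByExpr removed 0 regions. Calls needed an adjusted p under 0.05 and an absolute log2 fold change over 1; locus totals needed the adjusted p alone, and neighbouring genes share regions there. CPM use the TMM factors. Total counts of 23072701 to 62204826 put 3 counts at 0.0520 to 0.126 CPM. The fits were tested on simulated counts in which a small share of regions changed, in URE-LSK only, with gains and falls in equal number. Changes as widespread or as uneven in direction as those called in the data were not simulated. Named regions of a gene were its most counted promoter region within 500 bp of a start site, the called region with the smallest p in each direction of the genotype contrasts and the WT step, and, over all genes, the 5 interaction calls with the smallest p. The members and all lists were chosen with earlier results of these data known, and marker lists covered LSK, GMP, B, T, erythroid, megakaryocyte, mast and basophil, and macrophage genes. Some genes of these lists are not reported here.

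Alternatives were DESeq2 1.42.0, RLE and library size scaling, TMM on promoters, offsets by loess against abundance and GC content (span 0.3), no filter and a mean CPM of at least 2, no fold threshold and glmTreat, the replicate number as a block, each library left out, the 2 compared groups alone, and windows of 0 or 50 kb or by nearest start site. For the regions named by the WT step or the interaction, for the promoter, loess and GC scaling of locus totals and for locus totals outside the genotype contrasts, they were chosen after seeing the data. Same-numbered WT-LSK and WT-GMP libraries deviated together (r of 0.181, 0.191 and 0.207). Between WT-GMP and URE-GMP r was 0.0997, 0.205 and 0.349, and between WT-LSK and URE-GMP 0.0766, 0.179 and 0.141. It was 0.0616, 0.273 and 0.113 between URE-LSK and URE-GMP, and 0.102, 0.0625 and -0.0616 between WT-LSK and URE-LSK. Between URE-LSK and WT-GMP it was -0.00724, 0.00530 and -0.194. For the WT-LSK libraries, the highest r with a WT-GMP library of another number was -0.0972, -0.0413 and -0.0988. Such an r exceeded the same-numbered one for URE-LSK 1 with URE-GMP (0.114), WT-GMP 1 with URE-GMP (0.135) and WT-LSK 3 with URE-LSK (0.0786). The same held for every URE-LSK library with WT-GMP (0.149, 0.0653 and 0.164). The labels do not say that a number marks a mouse. Sequences are from the GRCm38 RefSeq assembly.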

Additional observations from a re-analysis of the deposited data

Results flagged for a closer look

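The following results stood out because the URE effect in GMP differed from that in LSK by the interaction test. Each value is the GMP effect minus the LSK effect on the log2 scale, from edgeR's quasi-likelihood test over all regions.

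More positive in GMP were Myb chr10:21151420-21151677 (2.34) and chr10:21153503-21154180 (1.21), Lmo2 chr2:103944827-103945289 (1.46), Mecom chr3:30438041-30438342 (1.67) and Satb1 chr17:51784950-51785299 (3.16). At the Myb, Lmo2 and Satb1 regions the fall in URE-LSK was the larger, and at the Mecom region the gain in URE-GMP was the larger.

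More negative in GMP were Sox4 chr13:28942684-28943467 (-1.20) and chr13:28950170-28951523 (-1.09), Mecom chr3:30144139-30144370 (-2.63), Hlf chr11:90364924-90365270 (-1.49) and 3 Prdm16 regions, chr4:154325392-154325731 (-3.06), chr4:154412597-154412871 (-3.23) and chr4:154519649-154519962 (-1.23). At the first of these Prdm16 regions URE-LSK gained accessibility and GMP did not pass the test. The Sox4 region at chr13:28950170-28951523, in the untranslated part of its exon, read 17.8, 19.5 and 17.6 CPM for WT and 24.2, 20.9 and 20.5 CPM for URE within LSK, and 22.8, 14.6 and 18.5 CPM for WT and 9.99, 9.82 and 11.5 CPM for URE within GMP. Its difference was short of the fold threshold without WT-GMP replicate 1 (-0.90).

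Summed over the locus, the genotype effects differed for Sox4 (-0.52), Hlf (-0.36) and Mycn (-0.47). The Mycn difference did not pass without WT-LSK replicate 3 (-0.39, adjusted p = 0.053) or URE-LSK replicate 1 (-0.46, adjusted p = 0.051). The Hlf difference did not pass without any 1 of the WT-LSK libraries (-0.31 to -0.32, adjusted p of 0.059 to 0.070), URE-LSK replicate 1 (-0.32, adjusted p = 0.054) or WT-GMP replicate 3 (-0.24, adjusted p = 0.073).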

How the results depend on the processing

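Regions of the 8 genes called under a mean CPM of at least 2 were 24 (LSK), 33 (GMP), 47 (WT step) and 75 (URE step), where fewer regions were tested. Without a fold threshold there were 89 in LSK and 127 in the WT step, and with glmTreat, which tests against that fold, 45 in GMP, 48 in the WT step and 3 for the interaction. Only 79 regions had a member start site as their nearest, and of these 15, 24, 27, 47 and 11 were called in LSK, GMP, the WT step, the URE step and the interaction. All 60 counts from fits that left out a library stayed within 1.5 times the count with all libraries. Loci that passed were 5 in LSK and 6 in GMP with TMM on promoter regions, 5 in GMP with library size only, 5 in GMP with GC content offsets and 5 for the interaction with the replicate block; fits that left out a library gave 1 to 5 in LSK and 1 to 5 for the interaction. Beside these, the replicate block ended the GMP call of Sox4 chr13:28942684-28943467 (-0.998), brought the locus totals of Myb and Prdm16 past the threshold of the interaction and changed no other call of a named region or of the 8 locus totals. The cause of the other changes was not tested.

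Values that changed sign had an adjusted p over 0.05 with all libraries and the TMM factors, except the Mecom upstream promoter in LSK and the Satb1 region chr17:51741233-51741438 in GMP. For the locus totals in LSK, Mecom became -0.0051 with library size only and -0.0610 with promoter TMM, Sox4 -0.0695, -0.12 and -0.11 with library size, promoter TMM and loess, Lmo2 0.11 with GC content and 0.029 at 50 kb, and Myb 0.029, 0.15, 2.8e-05 and 0.030 with RLE, GC content, no extension and DESeq2. In GMP, Hlf became 0.074 and Lmo2 0.12 with GC content, Mecom -0.016 and -0.054 with library size and promoter TMM, Mycn 0.032, 0.038 and 0.030 with RLE, GC content and DESeq2, and Satb1 0.055, 0.14, 0.0012 and 0.055 with RLE, GC content, the replicate block and DESeq2. Lmo2 in the URE step became 0.021 with RLE and 0.021 with DESeq2. For the interaction, Lmo2 became -0.097 and -0.0504 with no extension and 50 kb, and Mecom 0.0013, 0.0071, 0.0019 and 0.0017 with RLE, promoter TMM, loess and DESeq2.

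Among regions, the Mecom promoter in LSK became -0.11 with loess, and Satb1 51741233 became 0.38 in GMP with loess and -0.0072 in LSK with promoter TMM. Hlf 90334569 in GMP became 0.20 with GC content and 0.19 with the block and GC content, Hlf 90340597 -0.12 and -0.16 with library size and promoter TMM, and the Hlf promoter -0.00634, -0.052, -0.0166 and -0.012 with library size, promoter TMM, loess and GC content. Myb 21151420 in GMP became 0.28 with GC content and 0.27 with the block added. In LSK, loess gave 0.60 for Mecom 30260940 and 0.25 for Prdm16 154412597, the Myb promoter became -0.047 with promoter TMM and -0.15 with loess, and the Sox4 promoter -0.029, -0.0840, -0.215, -0.0765 and -0.0772 with library size, promoter TMM, loess, GC content and the block with GC content.

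Leaving out single libraries turned the sign of the following values, given as lowest to highest. Locus totals: Lmo2 -0.10 to 0.045 in the URE step and -0.032 to 0.17 for the interaction, Mecom -0.070 to 0.15 for the interaction, Myb -0.12 to 0.0076 and Sox4 -0.029 to 0.11 in LSK, Mycn -0.16 to 0.068 in GMP, and Satb1 -0.020 to 0.15 in the WT step and -0.053 to 0.0665 in GMP. Regions in GMP: Hlf 90340597 -0.27 to 0.15, the Hlf promoter -0.13 to 0.33, Mecom 30260940 -0.072 to 0.85, Mycn 12940139 -0.31 to 0.12 and Satb1 51759554 -0.065 to 0.38. In LSK these were Satb1 51741233 at -0.13 to 0.51 and the Sox4 promoter at -0.0068 to 0.16, and for the interaction the Lmo2 promoter at -0.14 to 0.075. Of the 1366 values of named regions under settings other than a left-out library, 1261 kept their direction and side of the threshold, as did 1373 of 1428 with a library left out. Levels near 3 counts limit what can be seen at the nearly closed regions.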
